A study of Homo sapiens with 9 samples.

Results

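The mesenchymal state was followed through 9 genes that mark or drive it in human liver cancer cell lines given a CDK12 inhibitor. They are the transcription factors SNAI1, SNAI2, ZEB1, ZEB2 and TWIST1, the secreted ligand TGFB1, and the structural genes VIM, FN1 and CDH2. They were chosen by name among protein-coding genes and make up 9 of the 32990 genes in the count table. RNA was sequenced from Hep3B, Huh7 and SNU449 cells, each as a control and with THZ531 at 250 and 500 nM, with 1 library per line and dose and so 9 libraries in all. THZ531 binds CDK12 and CDK13 covalently and blocks these cyclin K kinases, which phosphorylate elongating RNA polymerase II. The labels name no vehicle for the controls. The sample labels give 48 h of treatment throughout, whereas the protocol gives SNU449 48 h and the other lines 24 h, so line and time cannot be told apart.

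Epithelial cells hold together through E-cadherin junctions and can lose them in the epithelial to mesenchymal transition. The SNAI and ZEB zinc finger factors bind E-box sequences in promoters of epithelial genes and repress them, while TWIST1 is a basic helix-loop-helix factor that can drive the same change. TGF-beta is a classical inducer of these factors. Vimentin filaments, fibronectin in the matrix and N-cadherin are the usual markers of the outcome. In liver cancer lines, hepatocyte-like lines such as Hep3B and Huh7 keep epithelial genes, and SNU449 is known as a poorly differentiated, mesenchymal line.

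All 9 genes passed the filter on low counts and were among 15479 genes tested with edgeR's quasi-likelihood test, two-sided, with Benjamini-Hochberg adjustment over all tested genes and a threshold of 0.05. Total counts ran from 5701981 in Huh7 at 500 nM to 20657610 in the Hep3B control. Mitochondrial genes held 4.28% of counts in the Hep3B control and 12.4% at 500 nM, 3.85% and 13.1% in Huh7, and 4.32% to 4.47% in SNU449. Levels below are CPM, counts scaled to a common library size with TMM factors, which set the bulk of genes level between libraries. Scaling by total counts would move each log2 ratio to control by -0.417 and -0.592 for Hep3B (250 and 500 nM). For Huh7 the shifts are -0.487 and -0.948, for SNU449 0.0155 and -0.0223. Separate cultures are not stated, and each line and dose has 1 library, so the p-values cover only the spread among these samples. In the fit over lines that spread is how the lines disagree in their responses. In the fit within lines it is how the 250 and 500 nM libraries of a line differ, pooled over lines. There both doses stand in as replicates against 1 control. Technical spread is part of both and cannot be told apart. In bulk RNA, fewer cells with a transcript and less of it per cell cannot be told apart.

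The lines carried different sets of the 5 factors, and SNAI1 rose in treated Hep3B and Huh7. SNAI1 encodes Snail, a zinc finger repressor of the E-cadherin gene. SNAI1 was at 2.37 CPM in the Hep3B control, 59.6 at 250 nM and 40.3 at 500 nM. In Huh7 it was at 9.18, 80.5 and 139 CPM in the same order. In SNU449 it was at 0.665, 0.586 and 0.885 CPM, from 11, 9 and 16 counts. All 4 treated Hep3B and Huh7 libraries stood far above their controls, and the SNU449 libraries stayed below every library of the other lines.

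SNAI1 (ENSG00000124216) lies on chromosome 20 from 49982999 to 49988886 on the plus strand of GRCh38, with 3 exons in its principal transcript. In Hep3B it stood at 25.2 times control (95% counting interval 19.2 to 33.5) with 250 nM, and 17.0 times (12.9 to 22.8) with 500 nM. Huh7 gave 8.77 times (7.38 to 10.5) for the lower dose and 15.2 times (12.7 to 18.2) for the higher. These within-line ratios come from 1 library each, and their intervals, exact Clopper-Pearson ones as all below, cover counting error only. From 250 to 500 nM SNAI1 changed by a factor of 0.676 (0.594 to 0.768) in Hep3B and 1.73 (1.54 to 1.95) in Huh7. The order of the doses was thus opposite in those lines.

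Across the lines SNAI1 rose by 3.38 ± 0.63 log2 units (SE, 3 lines) at 500 nM, with an edgeR adjusted p of 0.0112, and by 3.26 ± 0.64 at 250 nM, with an edgeR adjusted p of 0.0290. At 500 nM 2 of the 9 genes were called, SNAI1 and SNAI2, where 4.17% of all tested genes were. At 250 nM SNAI1 was the 1 gene of 9 called, against 1.21% of all tested genes. Between the doses none of the 9 was called by edgeR, none had an unadjusted p under 0.05, and the share over all tested genes was 0.0%, which DESeq2 also gave as 0 genes. The calls rest on both Hep3B and Huh7. The SNAI1 call at 500 nM was lost without the Hep3B control (edgeR adjusted p = 0.130), the Hep3B 500 nM library (0.140) or the Huh7 500 nM library (0.180), and without either whole line (0.482 without Hep3B, 0.417 without Huh7). DESeq2 gave SNAI1 an adjusted p of 0.0597 at 500 nM and 0.185 at 250 nM. The 250 nM call was lost when any 1 Hep3B or Huh7 library was left out, with edgeR adjusted p-values from 0.0520 to 0.363.

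Within lines, with both treated libraries set against the control, SNAI1 rose by 4.39 ± 0.51 log2 units (SE) in Hep3B, with an edgeR adjusted p of 0.00145, and by 3.57 ± 0.47 in Huh7, with an edgeR adjusted p of 0.00185. In SNU449 the value was 0.16 ± 0.66, with an adjusted p of 1. The Hep3B call was lost without its 250 nM library (edgeR adjusted p = 0.0571). The response of SNU449 minus the mean response of Hep3B and Huh7, a comparison added after the data had been seen, was -3.82 ± 0.80 with an edgeR adjusted p of 0.0315. SNAI1 was the 1 gene of 9 called there, against 2.80% of all tested genes. This call was lost with total-count scaling (edgeR adjusted p = 0.0577), and without either treated Hep3B library (0.161 and 0.133). The F test that all 3 responses are equal called none of the 9, with an adjusted p of 0.0728 for SNAI1 and 0.0558 for ZEB1, 4 of them at an unadjusted p under 0.05, and 1.14% of all tested genes called. DESeq2 called 4 of the 9 in that test, and 4.99% of all tested genes.

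SNAI2, or Slug, is the close relative of SNAI1 and lies on chromosome 8 from 48917690 to 48921740 on the minus strand. It was counted 16, 10 and 31 times in Hep3B at control, 250 and 500 nM, which is 0.653, 0.845 and 3.40 CPM. Huh7 had 11, 63 and 45 counts, or 0.608, 8.23 and 12.1 CPM. SNU449 had 0, 2 and 1 counts, all at or below the floor of 3 counts, so no fold is given there. Both treated Huh7 libraries and the 500 nM library of Hep3B lay well above every control, and the 250 nM library of Hep3B lay near its own.

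Against control, SNAI2 was 13.5-fold higher (7.07 to 28.5) in Huh7 with 250 nM and 20.0-fold higher (10.2 to 42.8) with 500 nM. In Hep3B it was 5.21 (2.76 to 10.2) at 500 nM and 1.29 (0.525 to 3.03) at 250 nM, the latter turning to 0.969 with total-count scaling. SNU449, at 0 to 2 counts of SNAI2, could add little to the fit over the 3 lines, which here rests on Hep3B and Huh7. In that fit SNAI2 rose by 3.10 ± 0.73 log2 units (SE) at 500 nM, with an edgeR adjusted p of 0.0340. At 250 nM its value was 2.29 ± 0.76 with an adjusted p of 0.172. Within Huh7 it rose by 4.03 ± 0.82, with an edgeR adjusted p of 0.00797. In Hep3B the value was 1.64 ± 0.77 with an adjusted p of 0.156. The 500 nM call was lost without the Hep3B 500 nM library (edgeR adjusted p = 0.334), the Huh7 control (0.226), the Huh7 500 nM library (0.289), or the whole Hep3B (0.308) or Huh7 line (0.662). With the 6 libraries of the comparison alone it was 0.0542.

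**Figure D1:**
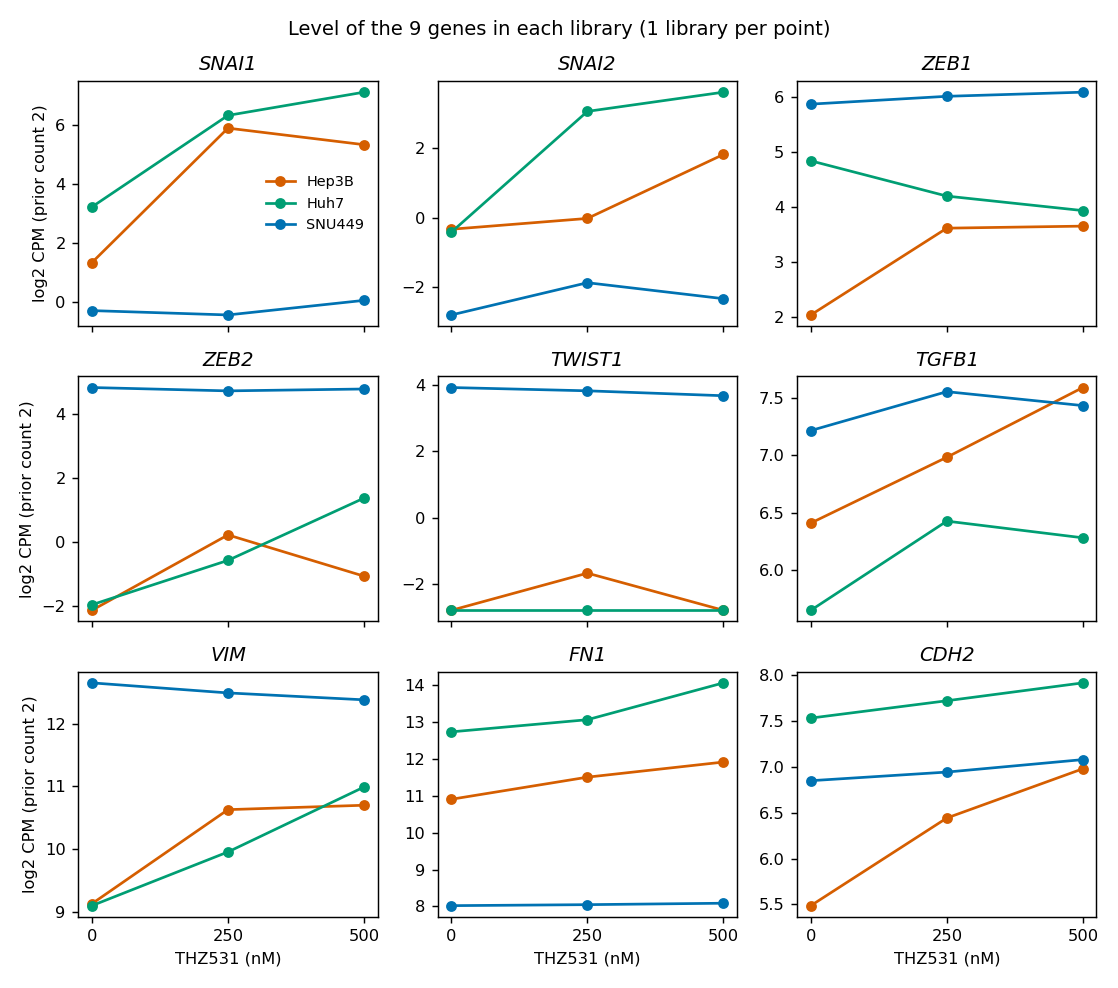
Level of each of the 9 genes in every library, as log2 CPM with a prior count of 2 (vertical) against the THZ531 dose in nM (horizontal), 1 point per library, coloured by line, each panel with its own vertical scale. SNAI1 stands higher in all 4 treated Hep3B and Huh7 libraries than in their controls and near the bottom in all SNU449 libraries, and ZEB2 and TWIST1 are high in SNU449.

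ZEB1 took opposite courses in Hep3B and Huh7. It encodes a zinc finger repressor of E-cadherin and lies on chromosome 10 from 31318495 to 31529814 on the plus strand. Hep3B had 3.96, 12.1 and 12.4 CPM at control, 250 and 500 nM, from 97, 143 and 113 counts. Huh7 had 28.4, 18.2 and 15.1 CPM, from 513, 139 and 56 counts. SNU449 had 58.1, 64.1 and 67.5 CPM. At 500 nM the levels of Hep3B and Huh7 lay close together, and SNU449 stood above both at every dose.

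Within Hep3B ZEB1 rose by 1.63 ± 0.34 log2 units (SE), with an edgeR adjusted p of 0.0100, or 3.13 (2.37 to 4.15) times control at 500 nM. That call was lost with total-count scaling (edgeR adjusted p = 0.0946) and without either treated Hep3B library (0.0728 and 0.0614). Within Huh7 the value was -0.76 ± 0.30 with an edgeR adjusted p of 0.0960, and -1.44 ± 0.43 with an adjusted p of 0.0244 under total counts, and the ratio at 500 nM was 0.533 (0.397 to 0.703). The response of Huh7 minus that of Hep3B was -2.38 ± 0.45 with an unadjusted p of 0.000194 in edgeR and an adjusted p of 0.203. None of the 9 genes was called in that comparison, 1 of them had an unadjusted p under 0.05, and 0.00646% of all tested genes were called, while DESeq2 called 1 of the 9. Over the 3 lines the change of ZEB1 at 500 nM was 0.22 ± 0.39 with an edgeR adjusted p of 0.731. The antisense gene ZEB1-AS1 at the same locus held 14 to 114 counts, 11.5% of the counts of ZEB1 in sum, and since no source states whether counting used strand, reads of both cannot be told apart.

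ZEB2 and TWIST1 were genes of SNU449. ZEB2, the second ZEB repressor, lies on chromosome 2 from 144388001 to 144524580 on the minus strand and was counted 466, 402 and 493 times in SNU449, or 28.2, 26.2 and 27.3 CPM. Hep3B had 2, 12 and 3 counts and Huh7 had 2, 4 and 9. TWIST1, on chromosome 7 from 19020991 to 19117672 on the minus strand, was counted 247, 214 and 227 times in SNU449, or 14.9, 13.9 and 12.6 CPM. In the other lines it was at 0 in 5 of 6 libraries and had 2 counts in Hep3B at 250 nM. No library of Hep3B or Huh7 came near the SNU449 level of either gene.

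In controls ZEB2 was 345 times as high in SNU449 as in Hep3B (94.9 to 2856) and 255 times as high as in Huh7 (70.1 to 2109). TWIST1 was at least 122-fold higher in the SNU449 control than in the Hep3B control and at least 90.0-fold higher than in the Huh7 control, taking 3 counts per library as the floor for 0. In the small counts of Huh7, ZEB2 at 500 nM was 22.0 times control (4.55 to 209). Its response within Huh7 was 3.36 ± 1.10 log2 units (SE) with an edgeR adjusted p of 0.0512, and within Hep3B 2.98 ± 1.07 with an adjusted p of 0.0755. In SNU449 the ratios to control at 500 nM were 0.969 (0.852 to 1.10) for ZEB2 and 0.842 (0.700 to 1.01) for TWIST1. Neither gene was called in any comparison of doses in the main fits.

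Per kilobase of the longest principal transcript, the 5 factors together came to 2.41, 38.1 and 27.6 CPM per kb in Hep3B at control, 250 and 500 nM. In Huh7 the sum was 10.9, 54.5 and 90.6, and in SNU449 23.0, 23.3 and 23.4. SNAI1 made up 58.2%, 92.7% and 86.5% of that sum in Hep3B and 49.8%, 87.5% and 91.1% in Huh7. In SNU449 it made up 1.71%, 1.49% and 2.24%, where ZEB1 held 46.5% to 53.2%, TWIST1 32.2% to 38.9% and ZEB2 11.8% to 12.8%. The sum in SNU449 hardly moved with dose, and with TMM the treated Hep3B and Huh7 libraries lay above it. With total counts, a scaling of the sum added after seeing the data, Hep3B at 500 nM came to 21.7 and lay below the 27.2 of SNU449, while the other 3 treated libraries, at 33.9 to 58.9, stayed above. With lengths over the union of annotated exons, an alternative chosen after seeing the data, SNAI1 held 68.2%, 95.2% and 90.7% in Hep3B, and TWIST1 47.1% against 43.1% for ZEB1 in the SNU449 control.

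**Figure D2:**
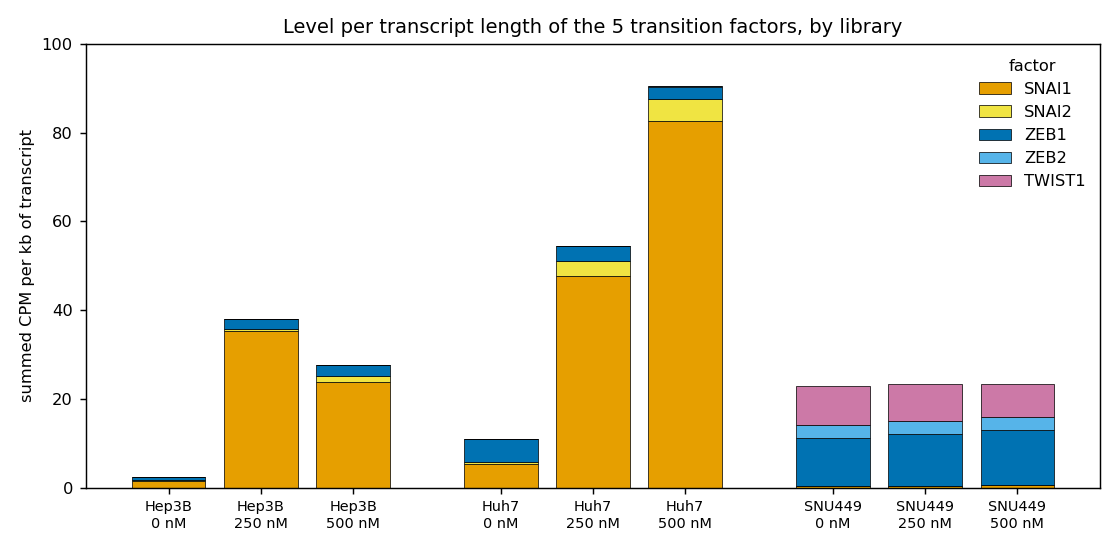
Summed level of the 5 transition factors in each library, in CPM per kb of the longest principal transcript, with 1 stacked bar per library and 1 colour per factor. The bars of treated Hep3B and Huh7 are almost all SNAI1 and reach 38.1 and 90.6, while the SNU449 bars hold ZEB1, TWIST1 and ZEB2 and stay between 23.0 and 23.4. With total counts in place of the TMM scaling drawn here, Hep3B at 500 nM would lie below SNU449.

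TGFB1 encodes the ligand TGF-beta 1 and lies on chromosome 19 from 41301587 to 41353911 on the minus strand. Hep3B had 85.0, 126 and 192 CPM at control, 250 and 500 nM, Huh7 had 50.2, 86.0 and 77.7, and SNU449 had 148, 188 and 173. All 6 treated libraries lay above the control of their line, but the 3 dose groups overlapped. Huh7 at 500 nM was 1.55 times control with TMM and 0.803 times with total counts.

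The change of TGFB1 at 500 nM was 0.69 ± 0.27 log2 units (SE, 3 lines) with an edgeR adjusted p of 0.117, and at 250 nM 0.56 ± 0.26 with an adjusted p of 0.290. No within-line response passed the threshold, with adjusted p-values of 0.0985 in Hep3B, 0.182 in Huh7 and 1 in SNU449. TGFB1 overlaps HNRNPUL1 on the opposite strand, a gene with 662 to 11702 counts per library, as well as CCDC97 and TMEM91, so here too reads of the strands cannot be told apart.

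VIM, the intermediate filament of mesenchymal cells, was highest by far in SNU449 and rose in the other lines. It lies on chromosome 10 from 17228259 to 17237593 on the plus strand. SNU449 had 6411, 5748 and 5333 CPM at control, 250 and 500 nM. Hep3B had 561, 1590 and 1660 CPM and Huh7 had 549, 993 and 2033. No treated library of Hep3B or Huh7 reached any SNU449 library, and in SNU449 both treated libraries lay below the control, at 0.897 (0.889 to 0.905) and 0.832 (0.825 to 0.839) times its level.

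At 500 nM the ratio of VIM to control was 2.96 (2.89 to 3.03) in Hep3B and 3.71 (3.60 to 3.82) in Huh7. Over both doses VIM rose by 1.54 ± 0.47 log2 units (SE) within Hep3B, with an edgeR adjusted p of 0.0442, and by 1.46 ± 0.47 within Huh7, with an edgeR adjusted p of 0.0474. Both values lie close to the threshold and passed it no longer with DESeq2 size factors (0.0650 and 0.0728). The Hep3B call was lost without either treated library of Hep3B (0.136 and 0.168) or of SNU449 (0.0669 and 0.0679). The Huh7 call was lost without either treated library of Hep3B (0.117 and 0.115) or of SNU449 (0.0780 and 0.0793), without the Huh7 500 nM library (0.73 log2 units, 0.0547), and with total counts (0.68 log2 units, 0.0622). The 3 lines together gave 1.05 ± 0.47 at 500 nM with an adjusted p of 0.160.

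FN1 ran the other way between lines from VIM. It encodes fibronectin, a matrix glycoprotein that hepatocytes also secrete into plasma, and lies on chromosome 2 from 215360440 to 215436172 on the minus strand. Huh7 had 6822, 8621 and 17150 CPM at control, 250 and 500 nM, Hep3B had 1925, 2920 and 3881, and SNU449 had 260, 264 and 272. The 3 lines did not overlap at any dose. At 500 nM it was 2.02 times control (1.99 to 2.04) in Hep3B, 2.51 times (2.49 to 2.54) in Huh7 and 1.05 times (1.01 to 1.09) in SNU449. With total counts the ratios at 500 nM were 1.34 in Hep3B and 1.30 in Huh7. Huh7 at 250 nM was at 1.26 times control with TMM and 0.901 with total counts. edgeR's test did not call FN1 at 500 nM, with an adjusted p of 0.205, while DESeq2 did. Nor did edgeR call it within Hep3B, at 0.82 ± 0.46 log2 units (SE) with an adjusted p of 0.236. Within Huh7 it was not called either, at 0.92 ± 0.47 with an edgeR adjusted p of 0.186.

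The 250 bases upstream of the RefSeq start of FN1 (chr2:215436069-215436318, minus strand, GRCh38.p14) are shown as an example. FN1 levels separated the lines, though those of ZEB2 did so more widely. The capitals mark a cAMP response element, searched as TGACGTCA, which is its own reverse complement. It is found in 1.65% of the 35116 promoter windows of that length in the RefSeq table. RefSeq promoters were at hand for 6 of the 9 genes. They were searched for this element, the AP-1 site TGACTCA and the E-box CAGGTG, each also as its reverse complement. Among them only FN1 held the cAMP response element and only ZEB1 the E-box. The windows of VIM, ZEB2, CDH2 and TGFB1 held none of these, so the element shown is a picked hit.
FN1 promoter: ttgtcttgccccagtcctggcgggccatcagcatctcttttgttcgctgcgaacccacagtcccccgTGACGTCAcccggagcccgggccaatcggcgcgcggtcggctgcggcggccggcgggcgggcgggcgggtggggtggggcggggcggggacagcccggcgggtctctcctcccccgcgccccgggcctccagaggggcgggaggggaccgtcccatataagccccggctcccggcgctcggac

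The element begins 183 bases before the start. The letters are a description of the window, and no binding was measured here.

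CDH2, or N-cadherin, lies on chromosome 18 from 27950966 to 28177446 on the minus strand. Hep3B had 44.7, 86.9 and 126 CPM at control, 250 and 500 nM, Huh7 had 185, 211 and 242, and SNU449 had 115, 123 and 135. With TMM, Hep3B at 500 nM reached the range of SNU449 and stayed below Huh7, while with total counts it stood at 99.2 CPM, below the 136 to 157 CPM of SNU449. Within Hep3B CDH2 rose by 1.25 ± 0.36 log2 units (SE), with an edgeR adjusted p of 0.0354, a call lost with total-count scaling (0.187), without either treated Hep3B library (0.0734 and 0.128) or without either treated SNU449 library (0.108 and 0.107). Within Huh7 the value was 0.29 ± 0.34 with an adjusted p of 0.587, and its ratio at 500 nM turned from 1.31 with TMM to 0.676 with total counts.

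In all, 4 of the 9 genes rose within Hep3B, where 9.82% of all tested genes did, and 3 within Huh7, where 13.3% did. The 4 in Hep3B were SNAI1, ZEB1, VIM and CDH2, and the 3 in Huh7 were SNAI1, SNAI2 and VIM. Within SNU449 none of the 9 was called by edgeR or by DESeq2 and none had an unadjusted p under 0.05, in a line where the share over all tested genes was 0.0% and 68 genes had an unadjusted p under 0.05. Without the SNU449 line 7 of the 8 members then tested were called at 500 nM, in a fit that called 41.6% of all its tested genes. With total counts 2 of the 9 rose within Hep3B, where 6.99% of all tested genes did. Within Huh7 they left SNAI1 and SNAI2 among the rises, where 7.83% of all tested genes rose, and called ZEB1 lower. The median log2 change of the 9 at 500 nM was 0.82, against -0.0497 over all tested genes.

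**Figure D3:**
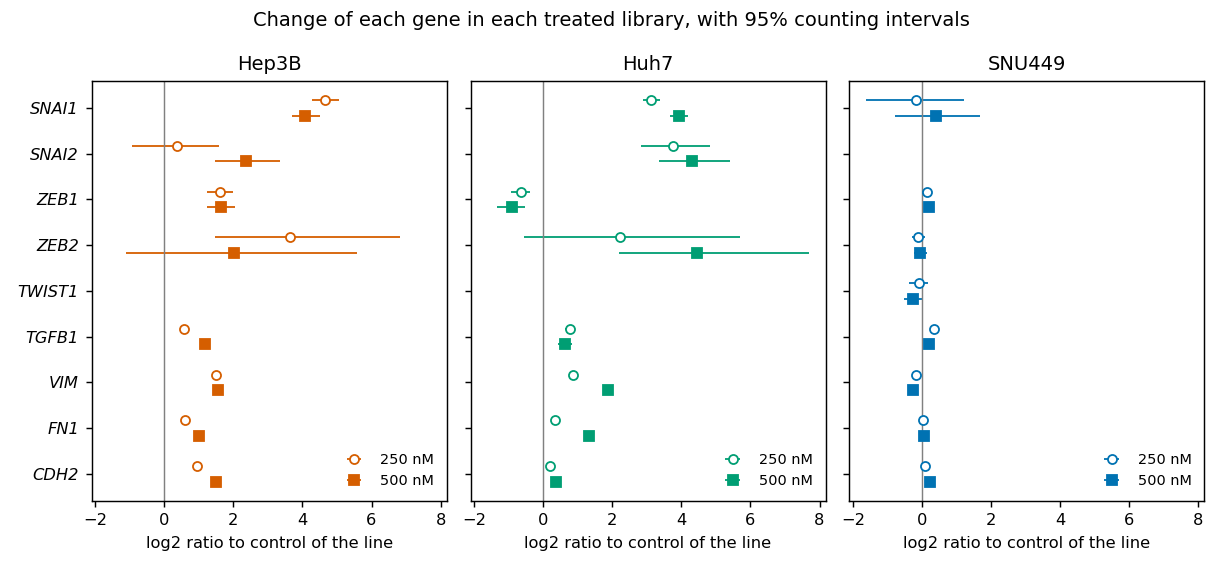
Log2 ratio of each gene to the control of its line at 250 nM (open circles) and 500 nM (filled squares), 1 panel per line on a shared horizontal axis, with 95% counting intervals. Ratios with 0 counts on either side are not drawn, and TMM scaling is used, under which CDH2 in Huh7 lies above 0 whereas total counts put it below. SNAI1 lies far to the right in both Hep3B and Huh7, ZEB1 lies on opposite sides of 0 in them, and the SNU449 points with many counts lie close to 0.

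Short genes had a higher median ratio than long genes in treated Hep3B and Huh7. In Hep3B and Huh7 the median log2 ratio of the 2506 protein-coding genes under 10 kb was 0.557 and 0.907 at 500 nM, and that of the 2671 genes over 100 kb was -0.295 and -0.584. In SNU449 these medians were -0.0210 and 0.0283. SNAI1 spans 5.89 kb, SNAI2 4.05 kb and VIM 9.34 kb, all in the short class. CDH2 (226 kb), ZEB1 (211 kb) and ZEB2 (137 kb) are in the long class, in which ZEB1 and CDH2 rose in Hep3B. The part of span, like that of the mitochondrial share, in these results was not tested.

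Most of these genes differed between lines in fits over all doses. Between SNU449 and the mean of Hep3B and Huh7, 8 of the 9 genes were called, against 59.7% of all tested genes. TWIST1 had 0 to 2 counts and ZEB2 2 to 12 outside SNU449, and SNAI2 had 0 to 2 in it. Each passed the filter on low counts through the line or lines where it was high, so its call adds no support. VIM (2.48 ± 0.39 log2 units, SE, edgeR adjusted p = 0.000102), ZEB1 (2.18 ± 0.31), ZEB2 (5.78 ± 0.53), TWIST1 and TGFB1 (0.84 ± 0.22, edgeR adjusted p = 0.00509) were higher in SNU449. FN1 (-4.30 ± 0.45), SNAI1 (-5.67 ± 0.66) and SNAI2 (-5.60 ± 0.84, with SNU449 at 0 to 2 counts) were lower there. These values take in the treated libraries, where SNAI1 rose in Hep3B and Huh7 and SNAI2 in Huh7. In controls alone SNAI1 was 3.56-fold (1.85 to 7.53) higher in Hep3B than in SNU449, and 13.8-fold (7.52 to 28.2) in Huh7. The Hep3B and Huh7 controls held 16 and 11 counts of SNAI2, against 0 in SNU449. CDH2 was not called, at -0.07 ± 0.24 with an edgeR adjusted p of 0.837 and SNU449 lying between the other lines in controls.

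Between Hep3B and Huh7 4 of the 9 were called, against 29.7% of all tested genes. FN1 (-1.86 ± 0.42, edgeR adjusted p = 0.00414), CDH2 (-1.39 ± 0.29, 0.00241) and ZEB1 (-1.23 ± 0.40, 0.0318) were lower in Hep3B, and TGFB1 (0.89 ± 0.27, 0.0223) was higher. The TGFB1 call was lost without either treated Hep3B library or any 1 Huh7 library (edgeR adjusted p = 0.0596 to 0.188). For VIM, next to each other in the order of levels, these lines did not differ beyond the spread, at 0.13 ± 0.45 with an adjusted p of 0.867. SNAI1 (-1.29 ± 0.50) and SNAI2 (-1.70 ± 0.62) had adjusted p-values of 0.0662 and 0.0555. The ZEB1 difference was lost without the Hep3B control (edgeR adjusted p = 0.221), the Hep3B 500 nM library (0.0539) or the Huh7 control (0.175), and in the 6 treated libraries alone (0.265).

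**Figure D4:**
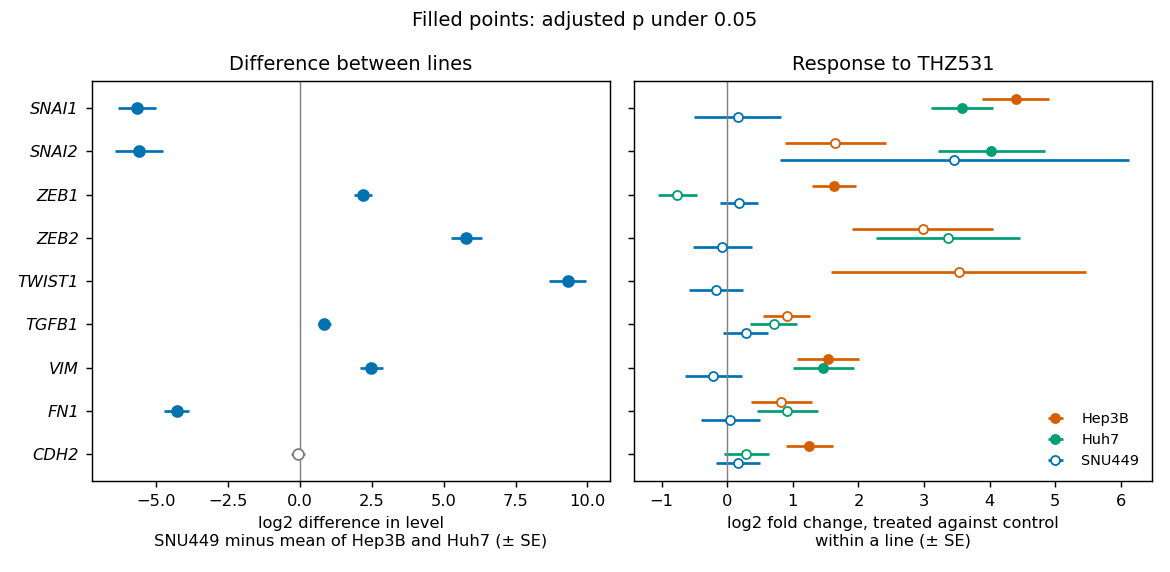
Left, log2 difference in level of SNU449 minus the mean of Hep3B and Huh7 ± SE. Right, log2 fold change of both treated libraries against control within each line ± SE, with filled points for an adjusted p under 0.05 (TWIST1 in Huh7, at 0 in every library, is not drawn). ZEB2 and TWIST1, which passed the filter through SNU449, lie far to the right in the left panel. SNAI1 lies far to the left, a difference that includes its rise in treated Hep3B and Huh7. In the right panel no SNU449 point is filled. Fitted values of genes with libraries at 0 counts, such as TWIST1 and SNAI2 in SNU449, depend on the prior count.

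Across the 9 libraries the genes fell into patterns that follow the lines, given here as descriptions since the libraries share 3 lines. SNAI1 and SNAI2 had a Pearson r of 0.916 in log2 CPM, VIM and ZEB2 one of 0.968, and FN1 and TWIST1 one of -0.932. Among 11151 protein-coding genes, those most like SNAI1 included RND3 (r = 0.994) and CXCR4 (0.990). For VIM they were SOCS2 (0.990), CD55 (0.988) and TMEM107 (0.986), and for FN1 COL12A1 (0.996), RHBDD3 (0.996) and LIPG (0.996). ZEB2 had ZBTB18 (0.993), HMGB3 (0.981) and FZD2 (0.980), and TWIST1 had PTPRB (0.997), DOCK4 (0.996) and DISP2 (0.995). CDH2 had HMBOX1 (0.970), SNAI2 had MICAL1 (0.983), ZEB1 had SYNPO (0.978) and TGFB1 had ANXA11 (0.974).

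Genes of the wider programme were read from lists, whose counts within Hep3B all fell to 0 without either of its treated libraries. Of 9 tested other transition factors none was called at 500 nM by edgeR, 5 had an unadjusted p under 0.05, DESeq2 called 2, where it called 10.1% of all tested genes, and the median log2 change was -0.160, or 0.631 with DESeq2. With total counts edgeR called 2 higher and 4 lower, where 17.5% of all tested genes were called, and with no filter 2 higher and 3 lower. Within Hep3B 2 of them rose, FOSL1 and FOXC1, and 2 fell, PRRX1 and TCF4. FOXC1, a forkhead factor, was at 6.04, 29.1 and 36.7 CPM in Hep3B, 0.221, 4.05 and 7.56 in Huh7, and 6.53 to 6.97 in SNU449. It rose by 2.44 log2 units in Hep3B (edgeR adjusted p = 0.00468) and by 4.59 in Huh7 (0.00204). FOSL1, an AP-1 subunit, was at 0.898, 8.37 and 18.9 CPM in Hep3B and 114 to 140 in SNU449.

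Among other mesenchymal markers, 6 of 11 tested rose within Hep3B (median 1.69) and 3 within Huh7 (median 0.94), and none fell in either. The shares of all tested genes that rose were 9.82% and 13.3%. With total counts the marker counts were 3 and 0, and the Huh7 count was also 0 without either treated Hep3B library. At 500 nM across the lines none was called by edgeR, 6 had an unadjusted p under 0.05 and DESeq2 called 2, while 8 were called without the SNU449 line, a fit that called 41.6% of all its tested genes. TAGLN, an actin-binding protein of smooth muscle, went from 48.2 to 413 and 716 CPM in Hep3B, 3.55 log2 units with an edgeR adjusted p of 0.00460. CD44, the hyaluronan receptor, was at 0.0817, 1.18 and 2.20 CPM in Hep3B, 21.1, 37.1 and 44.3 in Huh7, and 1048 to 1089 in SNU449. S100A4 rose in Hep3B (1.69 log2 units, edgeR adjusted p = 0.0213) and Huh7 (1.98, 0.0124). Between lines 7 of the 11 were higher in SNU449 and 3 lower, with a median of 3.09. Of all 15479 tested genes 4811 were higher there and 4437 lower. AXL, a receptor tyrosine kinase, stood at 427 to 621 CPM in SNU449 against at most 1.35 elsewhere.

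Of 9 tested TGF-beta targets 5 rose within Hep3B and 3 within Huh7, against 9.82% and 13.3% of all tested genes. At 500 nM edgeR called 1 of them, against 4.17% of all tested genes. That count of 1 was 4 with total counts, 3 with DESeq2 and 0 with DESeq2 size factors. It was also 0 without the control or 500 nM library of Hep3B, any 1 Huh7 library or the SNU449 250 nM library. CTGF, a matricellular protein, was at 140, 871 and 701 CPM in Hep3B, 251, 1732 and 4604 in Huh7, and 120, 130 and 147 in SNU449. It rose by 2.49 log2 units in Hep3B (edgeR adjusted p = 0.0135) and 3.66 in Huh7 (0.00317). CTGF and CYR61 also respond to other signals, YAP among them.

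Among 21 tested ligands, carriers, receptors and SMADs none was called at 500 nM by edgeR or DESeq2, 5 had an unadjusted p under 0.05, and the median was 0.282. With total counts the median was -0.218 and edgeR called 5 lower, where it called 1997 of all 15479 tested genes lower. Within Hep3B TGFBR3, SMAD3 and SMAD6 rose and SMAD4 fell, counts of 3 and 1 that total counts turned into 0 and 2. Of all tested genes, total counts called 1082 higher and 2405 lower in that line. Within Huh7 SMAD4 fell and LTBP4 rose, from 0 CPM to 0.784 and 0.540. The latter lies under the floor of 3 counts, 0.81 CPM in that library, so this rise rests on very few counts. SMAD4, the shared partner of receptor SMADs, was at 42.8, 18.4 and 15.3 CPM in Hep3B and 62.4, 35.8 and 20.2 in Huh7, with edgeR adjusted p-values of 0.0231 and 0.0405 for its falls. In SNU449 it was at 55.1, 60.9 and 60.8 CPM. Of 11 corepressors none was called at 500 nM by edgeR, 3 had an unadjusted p under 0.05 and DESeq2 called 1, and LOXL2 rose within Hep3B (2.97 log2 units, edgeR adjusted p = 0.00684). Of 7 genes for the turnover of SNAI factors none was called at 500 nM by edgeR or DESeq2, and none had an unadjusted p under 0.05. Of 12 fibronectin receptors, catenins and filament linkers none was called at 500 nM by edgeR, 2 had an unadjusted p under 0.05 and DESeq2 called 2, while ITGAV and PLEC rose in Hep3B and PLEC in Huh7.

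**Figure D5:**
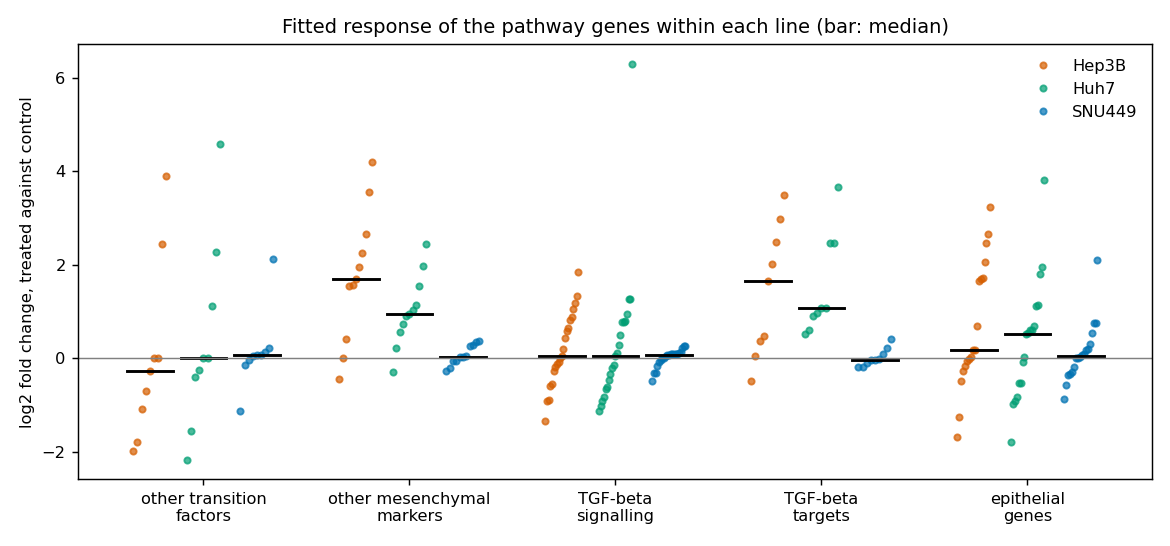
Fitted log2 fold change of treated against control libraries within each line, 1 point per tested gene of 5 lists, with a black bar at the median. The medians of mesenchymal markers and TGF-beta targets are 1.69 and 1.65 in Hep3B and 0.94 and 1.08 in Huh7, and medians of SNU449 are near 0. Fitted values of genes with libraries at 0 counts depend on the prior count.

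At 500 nM 3.45% of all tested genes rose. Of 18 tested epithelial genes 3 rose at that dose, CLDN4 (2.99 log2 units, edgeR adjusted p = 0.0374), EPCAM (1.12, 0.0479) and KRT19 (1.67, 0.0229), and none fell. The median was 0.339 with TMM and -0.279 with total counts, which called 1 higher and 3 lower. Of all 15479 tested genes, total counts called 709 higher and 1997 lower at that dose. None was called without the control or the 500 nM library of either Hep3B or Huh7. CDH1, which encodes E-cadherin and is named here after its values were seen, was at 145, 115 and 180 CPM in Hep3B and 65.4, 75.3 and 112 in Huh7. In SNU449 it was at 0.786, 0.651 and 0.221 CPM. Its change at 500 nM was 0.22 log2 units with an edgeR adjusted p of 0.695. Within Hep3B 5 of the 18 rose and 2 fell, and within Huh7 2 rose and 1 fell, or 2 rose and 4 fell there with total counts. Of all 15479 tested genes 1520 rose and 1040 fell within Hep3B, and 2059 rose and 935 fell within Huh7. With total counts 1212 rose and 3562 fell within Huh7. KRT8 (2.06 log2 units, edgeR adjusted p = 0.00915) and KRT18 (1.72, 0.0171), the keratins of simple epithelia, were among the epithelial rises in Hep3B. CLDN4, a tight junction claudin, rose in Hep3B (2.47, 0.0351) and Huh7 (3.80, 0.00723). The epithelial splicing factor ESRP1 fell by 1.68 log2 units in Hep3B (edgeR adjusted p = 0.00531), and ESRP2 fell by 1.25 in Hep3B (0.0179) and by 1.78 in Huh7 (0.00428). Between lines 15 of the 18 were lower in SNU449 and 1, TJP1, was higher, with a median of -4.40. Of all tested genes 4437 were lower there and 4811 higher.

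CRB3, an apical polarity protein and a known target of E-box repressors, is shown because its promoter carries the binding word of the SNAI and ZEB factors 5 times, and was chosen after its values were seen. It was at 40.9, 30.8 and 42.6 CPM in Hep3B, 13.4, 6.53 and 7.83 in Huh7, and 0.121, 0.260 and 0.0553 in SNU449. Its level in SNU449 differed from that of the other lines by -6.96 log2 units, with an edgeR adjusted p of 2.16e-08. CRB3 passed the filter on low counts through Hep3B and Huh7, where it was high, so this call adds no support. Its change at 500 nM was -0.36 with an edgeR adjusted p of 0.524. The window below is chr19:6464021-6464270, plus strand, GRCh38.p14, and capitals mark CAGGTG or its reverse complement CACCTG.
CRB3 promoter: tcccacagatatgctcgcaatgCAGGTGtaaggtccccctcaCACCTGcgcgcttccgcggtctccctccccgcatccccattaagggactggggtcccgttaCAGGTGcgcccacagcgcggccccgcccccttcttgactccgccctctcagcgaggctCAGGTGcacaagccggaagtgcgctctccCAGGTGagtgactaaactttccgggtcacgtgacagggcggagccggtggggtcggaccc

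The words begin 228, 208, 147, 89 and 60 bases before the RefSeq start. At least 1 such word is found in 17.5% of all 35116 windows. By gene, 5 of the 10 epithelial genes with a promoter in the table hold it, CLDN7, OCLN, TJP1, DSP and CRB3, against 20.6% of all gene symbols in the table.

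Hepatocyte markers were present in Hep3B and Huh7 and near 0 in SNU449. The 10 hepatocyte markers summed to 28460 to 49720 CPM in Hep3B and 9237 to 35050 in Huh7, and to 6.92 to 8.70 in SNU449, where TTR was at 0 in the control and at 500 nM and all 10 were lower. Markers near 0 in SNU449 passed the filter through the lines where they were high, so those calls add no support. Within Huh7, where 13.3% of all tested genes rose, 6 of the 10 rose and 1 fell (median 1.68). APOA1, an apolipoprotein, was at 2.55 log2 units there (edgeR adjusted p = 0.00664). The 6 rises became 1 without either treated Hep3B library. Within Hep3B none rose and 2 fell (median 0.74), where 1520 of all 15479 tested genes rose and 1040 fell. Of 3 bile duct markers 2 rose within Hep3B (median 1.66), KRT7 and KRT19, where 9.82% of all tested genes rose. Within Huh7, with its share of 13.3%, 2 rose (median 1.78), KRT19 and SOX9. KRT19 is also on the epithelial list. The part of these markers in the results above was not tested. The 8 fibroblast and stellate markers summed to 36.9 to 71.3 CPM in Hep3B, 319 to 1156 in Huh7 and 1008 to 1206 in SNU449, with DCN at 0 in all SNU449 libraries. LUM of that list rose at 500 nM (2.04 log2 units, edgeR adjusted p = 0.0328), the 1 call among 6 tested, and with total counts none was called. Within Hep3B 2 of the 6 rose (median 1.46) and within Huh7 4 (median 1.38), and none fell. The shares of all tested genes that rose were 9.82% and 13.3%. With total counts 2 rose and 1 fell within Hep3B, and 2 rose within Huh7. Between SNU449 and the mean of the other lines 3 were higher and 3 lower. The 5 endothelial markers summed to at most 3.51 CPM in any library, with KDR and TEK at 0 in all 9. The 5 immune markers summed to 76.9 to 147 CPM in Hep3B and 123 to 621 in Huh7, nearly all of it LYZ, and PTPRC was at 1.27 CPM or less everywhere.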

How the data were processed

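RNA of 9 libraries was read from the deposited table of raw counts per Ensembl gene, whole numbers with no normalization by the authors. Per the labels' protocols, polyadenylated RNA was made into TruSeq libraries. Per the submitters' processing notes, HISAT2 and HTSeq were used with GRCh38, while tool versions, annotation and strand use are not given in sources used here. All 9 count columns matched a sample by name.

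Counts were scaled with TMM and fitted in edgeR 4.0.16 (R 4.3.3), after filterByExpr on the dose groups. The dose fit held line and dose and left 4 residual degrees of freedom. The cell line pairs the libraries, since each treated library has the control of its own line. The second fit gave each line its own mean and treatment term and left 3. The SE is the log2 fold change divided by the root of F. The fits were tested on simulated counts that had no difference between lines and the same change in each. That leaves unchecked how they do on lines that differ in level and response, as these do. CPM used a prior count of 2 on the log2 scale, and lengths and exons came from GENCODE 29. Intervals are 95% Clopper-Pearson, and floors are 3 counts, both for counting error only.

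The 9 genes, the lists and the tests were chosen with earlier results of these data known. All 9 are named. From each list, up to 4 genes ranked by p at 500 nM and up to 4 ranked by p in the F test could be named, and the text names part of these. CDH1, CRB3, SMAD3 and TJP1 were named after their values were seen. Of 141 list genes 121 passed the filter. Some genes that these rules name are not reported here. Likeness took the 3 genes with the highest Pearson r among those whose mean log2 CPM reached 1. Alternatives were total counts or DESeq2 size factors for scaling, no filter, DESeq2 1.42.0, the libraries of the comparison alone, no line term, and leaving out each library or line.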

Additional observations from a re-analysis of the deposited data

Results flagged for a closer look

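Responses of the lines are given here for 4 of the 9 genes. For SNAI1 the response of SNU449 minus the mean of Hep3B and Huh7 was -3.824 log2 units, which passed the test of the difference with an edgeR adjusted p of 0.0315, and 0.0577 with total counts. The other differences below were noted because treated libraries moved in opposite directions in 2 lines at both doses. Of these only Huh7 minus Hep3B was itself tested. SNU449 was not tested against Hep3B or Huh7 alone, only against the mean of both. None of the adjusted tests given for these differences passed in the main fit. For SNU449 against the mean of both, DESeq2 called 3 of the 9 genes and 6.59% of all tested genes, against 1 of the 9 in the main fit. With no filter on low counts that test called 3 of the 9 and 3.96% of all tested genes. For Huh7 minus Hep3B, DESeq2 and the fit with no filter each called 1 of the 9, and 0.213% and 0.307% of all tested genes.

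For VIM the mean log2 ratio of SNU449 minus that of Hep3B was -1.746 and minus that of Huh7 -1.584. The test of SNU449 against both gave VIM an edgeR adjusted p of 0.0994. For ZEB1 the mean log2 ratio of Huh7 minus that of Hep3B was -2.364, with an edgeR adjusted p of 0.203, and that of SNU449 minus that of Huh7 was 0.9499. For ZEB2 the mean of SNU449 minus that of Hep3B was -1.789 and minus that of Huh7 -2.437, from 2 to 12 counts in the Hep3B and Huh7 libraries, with an edgeR adjusted p of 0.0720 for SNU449 against both.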

How the results depend on the processing

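Of 1333 values of single genes under an alternative, 1192 kept their side of the threshold, 59 lost and 82 gained a call, none turned round after a call, and 60 changed sign with no call under either setting. At 500 nM the count of 646 genes (534 higher, 112 lower) became 2706 with total counts (709 higher, 1997 lower), 2906 with no filter, 1556 with DESeq2, 76 with the 6 libraries alone and 0 with no replicate block, the fit that drops the line as the pairing term. Of the 9 genes 2 were called there, 1 with the 6 libraries alone and 0 with no replicate block. DESeq2 also called 2, but FN1 in place of SNAI1. At 250 nM the 188 genes became 367 with total counts, 102 with DESeq2 size factors, 1346 with no filter, 1 with the 6 libraries and 0 with no replicate block. Of the 9, 1 was called, 2 with no filter and 0 with DESeq2 size factors, DESeq2, the 6 libraries or no replicate block. Between the doses 0 genes became 7 with no filter and 44 with the 6 libraries. In the F test 177 genes became 69 with total counts, 1 with DESeq2 size factors, 1060 with no filter and 772 with DESeq2, and 0 of the 9 became 4 with no filter or DESeq2. Total counts gave 4774 genes (1212 higher, 3562 lower) for 2994 (2059 higher, 935 lower) within Huh7, and 2 of the 9 for 4 within Hep3B. Total counts also moved the split within Hep3B (1520 higher, 1040 lower, against 1082 and 2405), at 250 nM (164 and 24, against 268 and 99) and for SNU449 against both (4811 and 4437, against 5872 and 3335). The causes were not tested.

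Leaving out 1 library or line gave 4 to 6543 genes and 0 to 7 of the 9 at 500 nM, 0 to 5058 genes and 0 to 5 of the 9 at 250 nM, and 0 to 31 genes between doses. It gave 2907 to 6673 genes and 2 to 6 of the 9 for Hep3B against Huh7, 7158 to 10823 genes and 8 of the 9 for SNU449 against both, and 0 to 2421 genes and 0 to 4 of the 9 in the F test. Within Hep3B it gave 0 to 5485 genes and 0 to 7 of the 9, within Huh7 1928 to 6267 genes and 2 to 6 of the 9, and within SNU449 0 of either. A fit that leaves 1 treated library in a line assumes that it varies as the others do. Depth limits SNAI2, ZEB2 and TWIST1 outside SNU449, where single libraries hold 0 to 63 counts, and SNAI1 and SNAI2 in SNU449, at 9 to 16 and 0 to 2 counts.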
